A study of Mus musculus with 17 samples.

Results

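The tumours described here are the 4 high-burden tumours of an exome study of mouse pancreatic tumours, and the question is how the mutations called in both tumours of a mouse differ from those called in only 1. The 4 were selected on their number of calls, at least 30, from 11 tumours, and they are tumours 1 and 2 of mouse 1 and tumours 1 and 2 of mouse 2. The tumour just inside that limit was tumour 2 of mouse 2 with 37 calls, and the one just outside it was tumour 3 of mouse 3 with 17. Counted once per mouse, the 4 tumours held 188 of the 264 sites of the series, a site being a chromosome, a position, a reference base and an alternate base. A site is termed shared if it was called in both tumours of its mouse and private if it was called in 1 of them, so the sharing class is itself read from the calls. Mouse 1 had 91 shared and 51 private sites, and mouse 2 had 34 shared and 12 private sites.

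The glucagon receptor, encoded by Gcgr, passes the hormone glucagon's signal to the liver. When that signal is lost, amino acids accumulate in the blood and the glucagon-secreting alpha cells of the pancreatic islet multiply, a setting in which pancreatic neuroendocrine tumours can arise. A somatic mutation that a cell acquired before it founded a tumour is carried by all of its descendants, and one acquired later is carried by some of them. Whether each call described here is somatic or inherited was not tested. The allele fraction, the share of reads at a site that carry the alternate base, reflects how much of the sampled DNA has the change, and it also depends on how many normal cells the sample holds and on copy number.

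Genomic DNA of 11 tumours of 6 mice was sequenced after capture of exons, and each tumour was compared with the pancreatic control tissue of the mouse of the same number. Each control is 1 sample, and the series title names loss of function of GCGR. No source used here gives the genotype, strain, sex or age of each mouse, so whether all 6 mice carry the same alleles is not stated. The labels name a capture kit designed for human exons, although the animals are mice. DNA calls measure no expression, so the labelled tissue could not be checked against marker genes. The read depth behind each fraction is unknown, so allele fractions carry no interval. Shares carry an exact 95% interval by the Clopper-Pearson method, which covers only the error of counting. Positions are those of the mouse build GRCm38. No test was made between shared and private sites, because sites of 1 mouse are not replicates, the classes come from the calls, and 2 mice with 2 tumours each leave no test over animals. The fraction in the other tumour is not used here for a private site: a site without a call there is not shown to lack the change. Empty lines made up 12 of the 402 lines (2.99%) of the copy of the call table at hand, so up to 12 sites counted as private may have had a partner call among them.

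The reference sequence around 4 sites of mouse 1 gives the setting of shared and private changes. These are the single-base sites that fell in the windows around gene starts for which reference sequence was at hand, and they were not picked for their values. Each line gives 61 bases of the plus strand of GRCm38.p6 from RefSeq, 5′ to 3′, with the changed base in capitals.
Sco1: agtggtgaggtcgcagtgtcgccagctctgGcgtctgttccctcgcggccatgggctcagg
Cyp2a4: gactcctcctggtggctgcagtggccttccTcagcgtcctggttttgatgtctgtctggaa
Nfkb1: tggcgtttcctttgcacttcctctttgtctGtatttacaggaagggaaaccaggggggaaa
Mrps27: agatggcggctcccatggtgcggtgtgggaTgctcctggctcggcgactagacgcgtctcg
The first 3 sites were shared and the fourth was private. In Sco1, which encodes a copper chaperone of mitochondrial cytochrome oxidase (chr11:67052718-67052778), a G-to-A change turned a tryptophan codon into a stop codon, W18*, at 15.2% in tumour 1 and 15.6% in tumour 2. In Cyp2a4, a cytochrome P450 gene (chr7:26307231-26307291), a T-to-C change gave L15P at 10.9% and 23.7%. The site of Nfkb1, which encodes the precursor of a subunit of the transcription factor NF-kappaB (chr3:135608268-135608328), lay in an intron next to a splice acceptor, as a G-to-A change on the plus strand, at 17.1% and 15.5%. In Mrps27, a gene of the mitochondrial ribosome (chr13:99344801-99344861), a T-to-A change gave M10K at 20% in tumour 2 and had no call in tumour 1. That private fraction lay above both fractions of each of the Sco1 and Nfkb1 sites.

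Shared sites stood at higher allele fractions than private sites in all 4 tumours, by 5.90 percentage points or less in mouse 1 and by 38.6 or more in mouse 2. In tumour 1 of mouse 1 the 91 shared sites had fractions of 2.79 to 43.5% with a median of 12.5%, and the 17 private sites had fractions of 3.86 to 20% with a median of 6.60%. In tumour 2 of mouse 1 the shared sites had fractions of 3.88 to 35.9% with a median of 16.0%, and the 34 private sites had fractions of 2.07 to 38.5% with a median of 10.4%. The ranges overlapped almost wholly in both tumours of this mouse, and only 3 private sites, all in tumour 2, lay below the lowest shared site of their tumour. The shared median exceeded the private median by 5.90 points in tumour 1 and by 5.54 in tumour 2 (mean 5.72 ± 0.255, SD, n = 2 tumours). Fractions are part of what makes a call, so these differences describe the classes and do not test them.

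In mouse 2 the classes hardly overlapped. In its tumour 1 the 34 shared sites had fractions of 12.5 to 100% with a median of 46.7%, and the 9 private sites had fractions of 2.02 to 23.9% with a median of 2.73%. In its tumour 2 the shared sites had fractions of 16.7 to 100% with a median of 44.5%, and the 3 private sites had 2.96, 5.87 and 8.62%. All but 1 of the 12 private sites lay below the lowest shared site of their tumour, the exception being T288P in Tex24, a gene named for its expression in the testis (chromosome 8, 27345307). The differences of medians were 44.0 points in tumour 1 and 38.6 in tumour 2 (mean 41.3 ± 3.80, SD, n = 2 tumours). The 7 low-burden tumours of mice 3 to 6 had median fractions of 4.84 to 14.9%, a range that holds 4 of the 8 medians given for the high-burden tumours: both private medians and the shared median of tumour 1 in mouse 1, and the private median of tumour 2 in mouse 2.

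**Figure D1:**
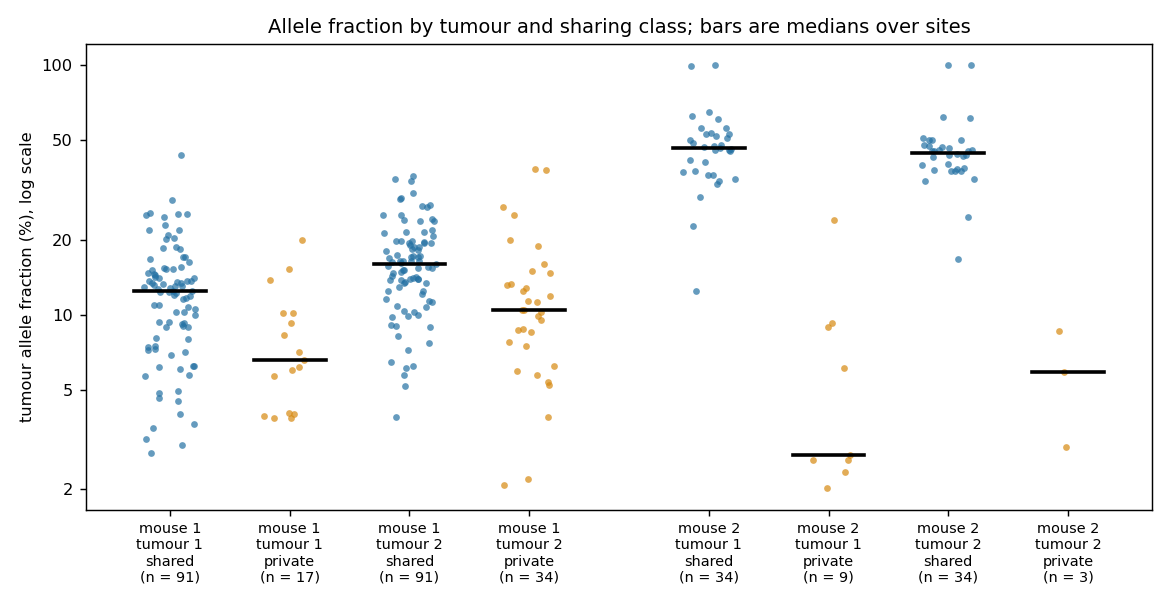
Allele fraction (%, log scale) of each site in each high-burden tumour, with shared sites (blue) left of private sites (orange) and a bar at the median over sites. In mouse 1 the point clouds overlap, with medians of 12.5 and 16.0% for shared and 6.60 and 10.4% for private sites, while in mouse 2 nearly all private sites lie below the shared ones.

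The highest shared sites of mouse 1 included several on the X chromosome. Cypt1 (a splice-region site) had 28.9% in tumour 1 and 35.9% in tumour 2, 4930415L06Rik (V54G) had 43.5% and 17.1%, Lrch2 (a splice-region site) had 25% and 29.2%, and Fancb, a Fanconi anaemia DNA-repair gene (E99D), had 21.9% and 18.2%. Fancb was chosen after its values were seen. These 4 shared X-linked sites had mean fractions over both tumours of 20.03 to 32.4% (median 28.7%), against 4.20 to 30.2% (median 14.1%) at the 87 autosomal shared sites. The single private X-linked site of mouse 1, S182G in Magea10, was called in tumour 2 at 25%, above the third quartile of the private sites of that tumour (14.4%). The sex of the animal is not given in the sources used here, so how many X chromosomes each cell has is not known.

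The other shared sites of mouse 1 with the highest mean fractions were autosomal. Slc25a27, a mitochondrial carrier gene, carried K270T at 25.4% in tumour 1 and 35% in tumour 2. Gna13, which encodes a G protein alpha subunit that restrains the movement and growth of germinal-centre B cells (chromosome 11, 109363064), carried S31P at 24.6% and 30.8%. H2-Ab1, which encodes the beta chain of a major histocompatibility class II molecule, carried Y57D at 25.2% and 29.5%. Thumpd2 carried R122K at 18.4% and 34.3%, and Krtap9-5, a hair keratin-associated protein gene, carried R44T at 25.6% and 24.3%. All of these were higher in tumour 2 than in tumour 1 except R44T. The lowest shared sites were K42R in the antibody segment Ighv1-15 (4.52% and 3.88%), S552T in Rptn, an epidermal protein gene (3.54% and 5.19%), and R320C in Lrrtm1, a synaptic adhesion gene (3.18% and 6.12%).

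Private sites reached the level of the highest shared sites in tumour 2 of mouse 1 but not in tumour 1. The highest private fractions of tumour 2 were 38.5% for Y1854N in Trip12, a ubiquitin ligase gene (chromosome 1, 84728133), and 37.9% for R1440K in Ptprz1, a receptor-type tyrosine phosphatase gene (chromosome 6, 23002231). Both exceeded the highest shared fraction of that tumour, 35.9%. Next came E331A in Cdk5rap2, a centrosome gene, at 27.0%, then the Magea10 and Mrps27 sites given above. High private fractions of tumour 1 were 20% for P27L in H2afx, the histone variant that marks DNA breaks (chromosome 9, 44334841), and 15.3% for D159G in Tnfrsf14, a receptor that restrains lymphocytes. Lower ones were Y64F in H2-Ab1 at 10.2% and N1048T in Aox3, an aldehyde oxidase gene, at 10.1%. Of the private sites, 3 of 17 in tumour 1 and 6 of 34 in tumour 2 lay above the shared median of their tumour, against 0 of 9 and 0 of 3 in mouse 2.

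The fractions of a shared site in both tumours of mouse 1 were related but not equal. Across the 91 sites, which share library and animal and are not independent, Pearson's r was 0.611 and Spearman's rho 0.630, given as a description. Tumour 1 minus tumour 2 ranged from -17.7 to 26.4 points with a median of -3.84. The sites furthest towards tumour 2 were P298S in Fchsd2 (7.50% in tumour 1 and 25.2% in tumour 2), R122K in Thumpd2 given above, and I257L in Gm13128 (8% and 23.8%). Those furthest towards tumour 1 were V54G in 4930415L06Rik given above, V33A in Gtf3c5, which encodes a subunit of an RNA polymerase III transcription factor (15.4% and 6.45%), and I258T in Fbll1 (20.2% and 13.8%). Autosomal sites alone had r of 0.652 over 87 sites, and their largest excess in tumour 1 was 8.93 points.

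In mouse 2 the shared sites lay on both sides of the line of equal fractions, without a lean towards either tumour. The median difference, tumour 1 minus tumour 2, was 0.166 points (-16.2 to 24.7), with Pearson's r of 0.857 and Spearman's rho of 0.539 over 34 sites. That range was about as wide as the -17.7 to 26.4 points of mouse 1. The r includes 2 sites near 100%, which the rank-based rho weights less. The sites furthest towards tumour 2 were I30R in Apol11b, an apolipoprotein L gene (45.5% in tumour 1 and 61.7% in tumour 2), I493V in Cntn4 (29.6% and 43.9%) and I307fs in Olfr44 (36.4% and 47.9%). Those furthest towards tumour 1 were I64L in Cntn4 (65% and 40.3%), S985A in Chl1 (56% and 37.5%) and G3306A in Akap9, a kinase-anchoring protein gene (60.9% and 43.6%). Cntn4 and Chl1, both neural cell adhesion genes, lie in the same stretch of chromosome 6, and Cntn4 sites appear at both ends of the range. The lowest shared sites of mouse 2 were L330M in Tex24 (12.5% and 16.7%), L33P in Mtus1 (22.7% and 24.7%) and A1203T in Chl1 (33.3% and 34.5%), so only the Tex24 and Mtus1 sites lay below 30% in both tumours.

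**Figure D2:**
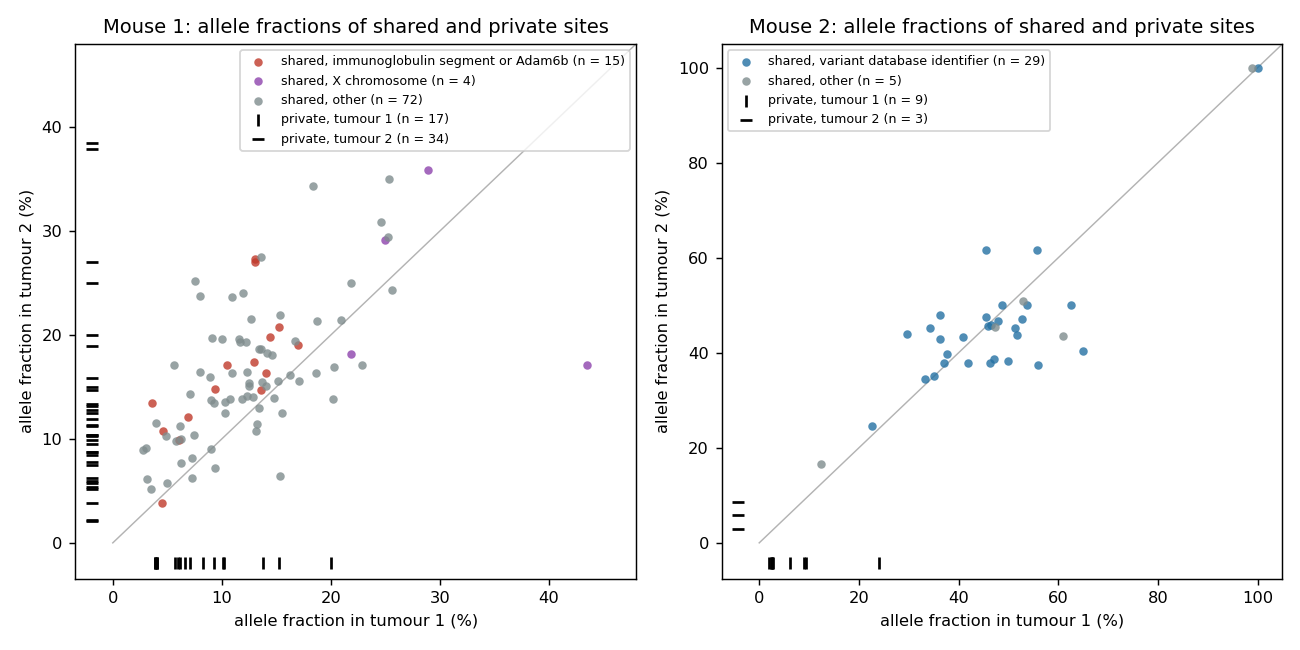
Allele fraction (%) of each shared site in tumour 1 (horizontal axis) and tumour 2 (vertical axis), for mouse 1 (left) and mouse 2 (right), with private sites as ticks outside 0 on the axis of the tumour that held the call and a grey line of equal fractions. Sites of mouse 1 scatter mostly above the line, at a median of -3.84 points for tumour 1 minus tumour 2, and those of mouse 2 lie on both sides of it, at a median of 0.166.

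Alternate reads in the control tissue separated the classes more by ratio than by count. In mouse 1, 14 of 91 shared sites had them (15.4%, 8.67 to 24.5) and 7 of 51 private sites (13.7%, 5.70 to 26.3), so the shares were alike within their intervals. In mouse 2, 7 of 34 shared sites had them (20.6%, 8.70 to 37.9) and 8 of 12 private sites (66.7%, 34.9 to 90.1), and the intervals overlapped slightly. With only calls of at least 5% the private share of mouse 2 fell to 33.3% (2 of 6 sites, in Rrbp1 and Tex24). In the low-burden tumours the share was 20 of 76 (26.3%, 16.9 to 37.7).

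The ratio of tumour to control fraction, taken at the sites with control reads, differed more. In mouse 1 it was 15.6 to 107.5 at the shared sites (median 28.2) and 1.10 to 25.7 at the private sites (median 2.33). In mouse 2 it was 14.5 to 71.2 at the shared sites (median 31.6) and 1.19 to 14.9 at the private sites (median 1.55). Of the 21 shared sites with control reads in both mice, 0 had a tumour fraction under 5 times the control fraction, and of the 15 private sites 11 did. The low-burden tumours held 14 such sites among 20 with control reads. The limit of 5 was chosen after the values were seen, and a call needs more alternate reads in the tumour than in the control, so the ratio is not independent of calling.

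The 11 private sites with low ratios lay in 7 genes, counted per mouse 3 in mouse 1 and 5 in mouse 2. Sfi1, whose product binds centrin at the centrosome, held 5 of them. In mouse 1 its sites were in tumour 2, R152Q (chromosome 11, 3177444) at 2.07% with 1.88% in the control and a splice-region site at 2.21% with 1.83%. In mouse 2 they were in tumour 1, T876M at 2.61% with 1.76% in the control, M163V at 2.35% with 1.73% and the same splice-region site as in mouse 1 (chromosome 11, 3143341) at 2.02% with 1.70%. The fractions of Sfi1 thus lay within 1 point of the control in every case. The other sites of mouse 1 were I623M in the keratin gene Krt78 (3.87%, control 2.89%) and V59I in the predicted gene Gm10801 (4.04%, control 1.74%). Those of mouse 2 were S328A in Rrbp1, which encodes a ribosome-binding protein of the endoplasmic reticulum (5.87%, control 3.89%), R139S in Gm10800 (2.96%, control 1.86%), L144V in C130026I21Rik (2.63%, control 1.23%) and P755Q in the mucin gene Muc4 (2.73%, control 1.18%). Whether reads of similar genes were placed at these sites was not tested.

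Private sites with control reads at higher ratios were few. In mouse 1 they were M216K in Gm21738 (6.15%, control 1.09%), the duplication V19Y20dup in Nceh1, which encodes a cholesteryl ester hydrolase (11.3%, control 0.535%), and V61L in Ighv1-15 (5.21%, control 0.203%). In mouse 2 it was T288P in Tex24 (23.9%, control 1.61%). Among shared sites the highest control fractions were 1.28% for S298P in Pde12, a mitochondrial RNA-trimming enzyme gene, whose fractions were 21.0% in tumour 1 and 21.4% in tumour 2 of mouse 1, and 3.23% for S985A in Chl1 in mouse 2. The S985A control fraction lay above that of every private site with control reads but Rrbp1, at a much higher tumour fraction.

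**Figure D3:**
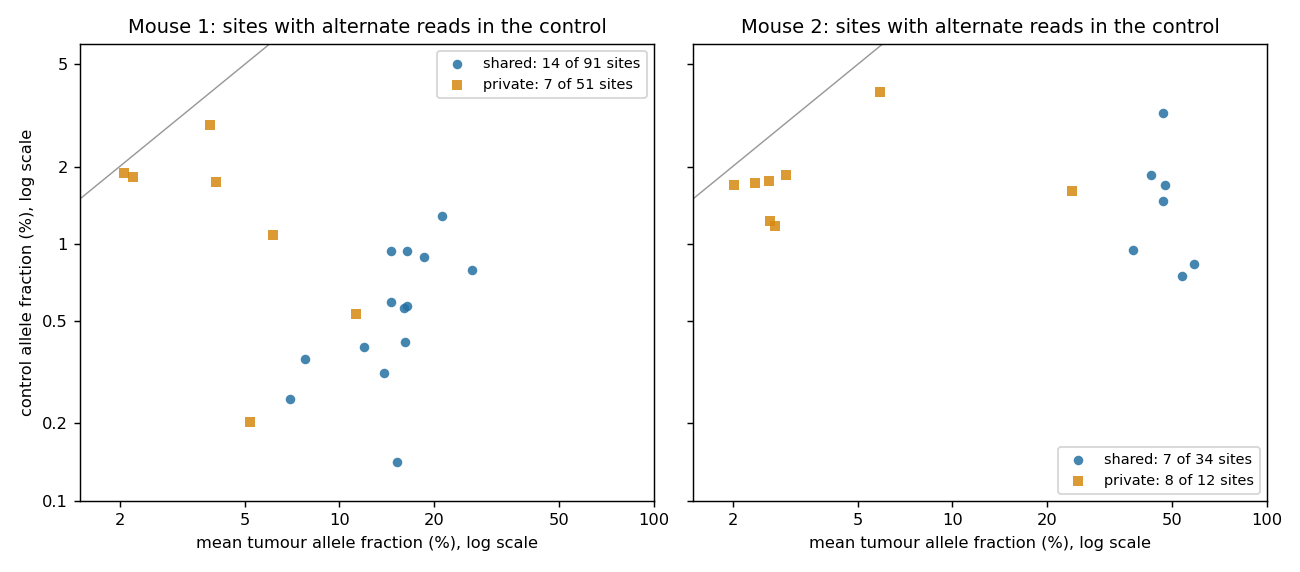
Control allele fraction (%) against mean tumour allele fraction (%), both on log scales, for the sites with alternate reads in the control of mouse 1 (left, 14 shared and 7 private) and mouse 2 (right, 7 shared and 8 private), with a grey line of equal fractions. Of the 15 private sites (orange squares), 11 lie near the line, and shared sites (blue circles) lie far to its right.

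Sites also called in another mouse of the series were private without exception among these tumours. Of the private sites, 4 of 51 in mouse 1 (7.84%, 2.18 to 18.9) and 2 of 12 in mouse 2 (16.7%, 2.09 to 48.4) were called in another mouse. Of the shared sites, 0 of 91 in mouse 1 were (up to 3.97%) and 0 of 34 in mouse 2 (up to 10.3%). In the low-burden tumours 5 of 76 sites were (6.58%, 2.17 to 14.7). The sites were R152Q and the splice-region site of Sfi1, V59I of Gm10801, and I42L of Gm21738, which stood at 7.79% in tumour 2 of mouse 1 and 6.10% in tumour 1 of mouse 2 with a control fraction of 0 in both.

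Identifiers of a variant database fell on shared sites in mouse 2 and on almost none elsewhere. In mouse 2, 29 of 34 shared sites carried one (85.3%, 68.9 to 95.05) and 1 of 12 private sites (8.33%, 0.211 to 38.5), the private one being T288P in Tex24. In mouse 1, 0 of 91 shared sites did (up to 3.97%) and 1 of 51 private sites (1.96%, 0.0496 to 10.4), I623M in Krt78. Without the sites that carry an identifier, 5 of 16 sites of mouse 2 were shared (31.2%), against 34 of 46 with them (73.9%, 58.9 to 85.7). At fractions of at least 0.1 the single private site left, T288P in Tex24, has an identifier, so the private share is then 100%. The 5 shared sites of mouse 2 without an identifier had fractions of 14.6 to 99.5% as means over both tumours (median 51.9%) and a control fraction of 0. They were R114G in the profilin gene Pfn3 (99.0% in tumour 1 and 100% in tumour 2), N42T in the olfactory receptor gene Olfr239 (52.9% and 50.9%), the Akap9 and Tex24 sites given above, and the stop codon E221* in Dnm2, the gene of the membrane-fission enzyme dynamin 2 (chromosome 9, 21471414), at 47.4% in tumour 1 and 45.3% in tumour 2. Fractions of the 29 sites with an identifier had a median of 45.7%. Whether the shared sites of mouse 2, with or without an identifier, are somatic or inherited was not tested.

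Immunoglobulin segments and Adam6b, which lies inside the heavy-chain locus, were hit in mouse 1 on both sides of the classes. Antibody segments are cut, joined and then mutated in B cells, which makes them differ from the inherited sequence. Segments and Adam6b made up 15 of the 91 shared sites of mouse 1 (16.5%, 9.53 to 25.7) and 5 of its 51 private sites (9.80%, 3.26 to 21.4), with overlapping intervals. All 5 private ones were called in tumour 2. They were V211L in the constant gene Ighm at 10.4%, M4V and A3V in the joining segment Ighj4 at 10.3% and 13.2%, and E73D and V61L in the variable segment Ighv1-15 at 3.88% and 5.21%. The shared ones had lower fractions in tumour 1 than in tumour 2 at 14 of 15 sites, with a median difference of -5.31 points. The other 76 shared sites of mouse 1 were lower in tumour 1 at 58, with a median difference of -3.21 points. In mouse 2, 0 of 34 shared and 0 of 12 private sites lay in immunoglobulin segments or Adam6b. The share of these genes among all genes was not counted, so the counts of either mouse are given as a description only. Without these genes the shared share of mouse 1 was 62.3%, against 64.1% with them.

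The shared antibody sites covered heavy and light chains. The joining segment Igkj4 of the kappa chain carried N11D at 17.0% in tumour 1 and 19.1% in tumour 2. The lambda variable segment Iglv1 carried a splice acceptor change at 14.5% and 19.8% and a splice-region change at 13.6% and 14.7%. In the heavy chain, Ighv1-18 carried I70V at 13.0% and 17.4% and T49P at 10.5% and 17.2%, and Ighv2-2 carried I111L at 3.64% and 13.5% and A81T at 4.62% and 10.8%. Ighv1-21-1 had a change at 14.04% and 16.4% with 0.141% in the control, the lowest control fraction above 0 among the high-burden tumours. Whether reads of similar segments were exchanged in the mapping was not tested.

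A list of 30 genes that are mutated off target by the antibody-mutating enzyme in B cells, or recurrently mutated in B-cell lymphoma, had 4 hits in mouse 1 (13.3%) and 0 in mouse 2. Beside it, 111 of the 21896 protein-coding genes of the RefSeq table had a site in mouse 1 (0.507%). The list was chosen with earlier results of these calls known, so its count is a description. Hits at shared sites were S31P in Gna13 given above, a splice donor change in Pim1, a serine-threonine kinase gene, at 7.29% in tumour 1 and 8.20% in tumour 2, and L88P in Klhl6, a ubiquitin ligase adaptor gene of B cells, at 6.20% and 11.2%. The private hit was P27L in H2afx in tumour 1. Their fractions differed: Gna13 was among the 8 highest shared sites, and Pim1 and Klhl6 lay below the shared medians of both tumours.

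Olfactory and vomeronasal receptor genes, the large families of odour and pheromone receptors, were hit mostly at shared sites. Sites of all kinds were also mostly shared, 125 against 63 private. Receptor genes held 11 of 91 shared sites in mouse 1 (12.1%, 6.19 to 20.6) and 1 of 51 private sites (1.96%, 0.0496 to 10.4), with overlapping intervals. In mouse 2 they held 2 of 34 shared sites and 0 of 12 private sites. By gene, 10 of 79 genes with a shared site in mouse 1 were receptors (12.7%) and 1 of 46 with a private site (2.17%). In mouse 2 the counts were 2 of 23 (8.70%) and 0 of 10. Receptors make up 1465 of the 21896 protein-coding genes of the table (6.69%). That base is not quite alike, because 73 of the 79 and 42 of the 46 genes of mouse 1 are among those protein-coding genes. The private receptor site of mouse 1 was S220P in Olfr750 at 11.9% in tumour 2. The shared receptor sites of mouse 1 ranged from V152I in Olfr358 (2.79% in tumour 1 and 8.95% in tumour 2) to K21T in Olfr1294 (22.9% and 17.1%). F199L and M204L in Olfr1124 lay 13 bases apart at 4.88% and 10.3% and at 5.76% and 9.78%.

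Changes that cut a protein short or remove a splice site were shared at 9 sites and private at 2. Sites of all kinds numbered 125 shared and 63 private. In mouse 1 the truncating and splice-site changes made up 7 of 91 shared sites (7.69%, 3.15 to 15.2) and 2 of 51 private sites (3.92%, 0.478 to 13.5), with overlapping intervals. Besides Sco1, Pim1 and Iglv1, the shared ones were frameshifts in Adam6b (F113fs, 15.3% in tumour 1 and 20.7% in tumour 2), in Tet3, which encodes an enzyme that oxidises methylated cytosine (Q788fs, chromosome 6, 83402824, 13.2% and 11.4%), and in Apobec3, a cytidine deaminase gene of antiviral defence (R50fs, a loss of 7 bases, 6.25% and 10%), and a splice donor change in Fas, the death receptor gene (chromosome 19, 34316678, 13.6% and 27.5%). The private ones were stop codons, R385* in the glutamate transporter gene Slc17a6 at 3.92% in tumour 1 and E115* in Ercc6l2, a DNA-repair gene, at 6.25% in tumour 2. Both private fractions lay below the private median of their tumour. In mouse 2 the Dnm2 stop codon and the Olfr44 frameshift were shared, and 0 of 12 private sites were truncating (up to 26.5%).

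The calls included 0 synonymous changes, so the share of protein-altering sites tells only how they split from splice-region changes. Its high level in both classes is bound to which calls were deposited. This share differed little in mouse 1, 83 of 91 shared (91.2%, 83.4 to 96.1) and 48 of 51 private (94.1%, 83.8 to 98.8). In mouse 2 it was 25 of 34 shared (73.5%, 55.6 to 87.1) and 11 of 12 private (91.7%, 61.5 to 99.8), with overlapping intervals, and without database identifiers it was 100% shared and 90.9% private. The other shared sites of mouse 2 were splice-region changes, 9 of 34 (26.5%, 12.9 to 44.4), 4 of them in Itpr1, the gene of a calcium channel of the endoplasmic reticulum. Those 4 sites had fractions of 35 to 51.3% in tumour 1 and 35.1 to 45.2% in tumour 2.

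Among single-base changes, with each change and its complement counted together, T-to-C changes took a larger share of shared than of private sites in both mice. In mouse 1 they were 30 of 88 shared changes (34.1%, 24.3 to 45.0) and 9 of 50 private changes (18%, 8.58 to 31.4), and in mouse 2 they were 12 of 32 (37.5%, 21.1 to 56.3) and 1 of 12 (8.33%, 0.211 to 38.5). The intervals overlapped in both mice, and the order turned round under some choices of calls. With fractions of at least 0.1 the shares of mouse 1 were 31.6% shared and 34.1% private, and without database identifiers those of mouse 2 were 0% shared and 9.09% private. The classes were set anew after each filter, so at 0.1 a shared site with 1 call under the limit counted as private. C-to-T changes of mouse 1 were level at 27.3% shared and 26% private. C-to-A changes were 3 of 88 shared (3.41%, 0.709 to 9.64) and 6 of 50 private (12%, 4.53 to 24.3) in mouse 1, and C-to-G changes were 5 of 88 (5.68%, 1.87 to 12.8) and 7 of 50 (14%, 5.82 to 26.7). Transitions made up 61.4% of shared and 44% of private changes in mouse 1 (50.4 to 71.6 and 29.99 to 58.7), and 56.2% and 33.3% in mouse 2 (37.7 to 73.6 and 9.92 to 65.1).

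Calls of tier 1, a class the deposited table gives without a definition, made up 88.5% of calls at shared sites and 86.3% of calls at private sites in mouse 1, and 94.1% and 83.3% in mouse 2, an order that turned round in both mice at fractions of at least 0.1. There a shared site of mouse 1 with 1 call under the limit counted as private. The tier differed between the tumours at 13 of 91 shared sites of mouse 1 and 4 of 34 of mouse 2. A quality score, 1 value per site, was given for 58 of 91 shared sites and 32 of 51 private sites in mouse 1. Its median was 318.5 (74 to 1918) at shared and 135.5 (73 to 255) at private sites. Whether the score adds up over both tumours of a shared site is not stated. In mouse 2 it was given for 22 of 34 shared sites, at a median of 606 (77 to 3592), and for 1 of 12 private sites, at 292 in Spink7.

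By gene, mouse 1 had 119 genes, of which 73 had only shared sites, 40 only private sites and 6 both. Mouse 2 had 32 genes, of which 22 had only shared sites, 9 only private sites and 1, Tex24, both. Only Sfi1, Gm21738 and Olfr44 were hit in both mice. Sfi1 and Gm21738 held private sites alone in each, and Olfr44 held a different shared site in each, S70P in mouse 1 at 6.25% in tumour 1 and 7.69% in tumour 2, and I307fs in mouse 2 given above. Lists of 27 pancreatic neuroendocrine tumour genes and 23 glucagon receptor and alpha-cell genes had 0 sites of either class in both mice. Of all protein-coding genes 0.507% were hit in mouse 1 and 0.137% in mouse 2, and nothing is read from zeros in lists this short. Very long genes, a list of 32, were hit at a shared site in Ttn (G30071R, 4% in tumour 1 and 11.6% in tumour 2) and at private sites in Csmd1 (A247G, 9.30% in tumour 1) and Pclo (N4652D, 6.02% in tumour 1) of mouse 1, and in Muc4 of mouse 2, which is 3 of the 32 genes in mouse 1 and 1 of the 32 in mouse 2 beside those shares of all genes. The shared change K33E of Smad3, which relays TGF-beta signals, was the only hit of a list of 24 signalling genes. The Tet3 frameshift, also shared, was the only hit of a list of 28 chromatin genes. Both were in mouse 1, where 0.507% of all protein-coding genes were hit, and nothing is read from 1 hit in lists this short.

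The genes of mouse 1 with both classes show shared and private changes side by side. In H2-Ab1 the shared Y57D (25.2% in tumour 1 and 29.5% in tumour 2) and the private Y64F (10.2% in tumour 1) lay 22 bases apart on chromosome 17 (34264835 and 34264857). In Ighm the shared F207L (6.90% and 12.1%) and the private V211L (10.4% in tumour 2) lay 12 bases apart. In Nceh1 the shared P24T (14.6% and 18.1%, control 0.571%) and the private V19Y20dup (11.3% in tumour 2) lay 19 bases apart, and both had control reads. In each of these 3 pairs the private fraction was below the shared fraction in the tumour that carried both.

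Farther apart, Ptprz1 had shared sites V1375I (12.2% and 19.3%) and M1507T (10% and 19.6%) and private sites of tumour 2, R1440K (37.9%) and S1848R (12.8%). R1440K thus exceeded both shared sites of its gene. Ctnna2, which encodes the neural alpha-catenin, had the shared R743I (7.06% and 14.3%) and the private Q880H (15% in tumour 2). Sites lay close in Ighv1-15, 5 within 295 bases, with the shared W3G (9.34% and 14.8%), a further shared change (6.09% and 9.93%) and K42R, and the private E73D and V61L. In tumour 2, E73D was level with K42R (3.88% each), and V61L (5.21%), 56 bases from K42R, was above it.

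Sites within 100 bases of each other came in 15 pairs in mouse 1, of which 8 joined shared sites, 5 a shared and a private site and 2 private sites. Most of these pairs lay in immunoglobulin segments or Adam6b. Among all sites of mouse 1, 91 were shared and 51 private, and nothing is read from the split of the pairs. Mouse 2 had 1 pair, of shared sites. Some shared pairs had almost the same fractions: I205R and S206T in Adam6b, 2 bases apart, had 13.0% each in tumour 1 and 27% and 27.3% in tumour 2, and A589V and I595K in Cdc42bpg, a kinase gene chosen after its values were seen, 18 bases apart, had 10.3% and 11.9% in tumour 1 and 13.5% and 13.9% in tumour 2. Pde12 had Y306D (20.3% and 16.9%) and S298P, 24 bases apart, and V121A (9.26% and 13.5%). Whether such neighbouring changes sat on the same DNA molecule cannot be read from the calls.

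Shared sites had a neighbour within 1 Mb more often in mouse 2 than in mouse 1, with intervals that overlapped slightly. Both mice had dense stretches. In mouse 2, 23 of 34 shared sites had another site of the same mouse within 1 Mb (67.6%, 49.5 to 82.6) and 4 of 12 private sites (33.3%, 9.92 to 65.1), while in mouse 1 the counts were 37 of 91 (40.7%, 30.5 to 51.5) and 16 of 51 (31.4%, 19.1 to 45.9). Shared sites lay on 20 chromosomes in mouse 1 and private sites on 19, with at most 12 and 7 on 1 chromosome. Those 12 shared sites lay on chromosome 12 between positions 113421999 and 114736630, all in immunoglobulin segments or Adam6b. In mouse 2 shared sites lay on 10 chromosomes, and private sites on 8 with at most 3 on 1 chromosome. Of the 34 shared sites, 14 lay on chromosome 6, between positions 103711153 and 108485235. A further 8 lay on chromosome 18, between positions 80117170 and 80972275. All sites of both stretches carried a database identifier. Counting sites of 1 class within 1 Mb as 1 block, 69 of 114 blocks of mouse 1 were shared (60.5%) and 17 of 27 of mouse 2 (63.0%).

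**Figure D4:**
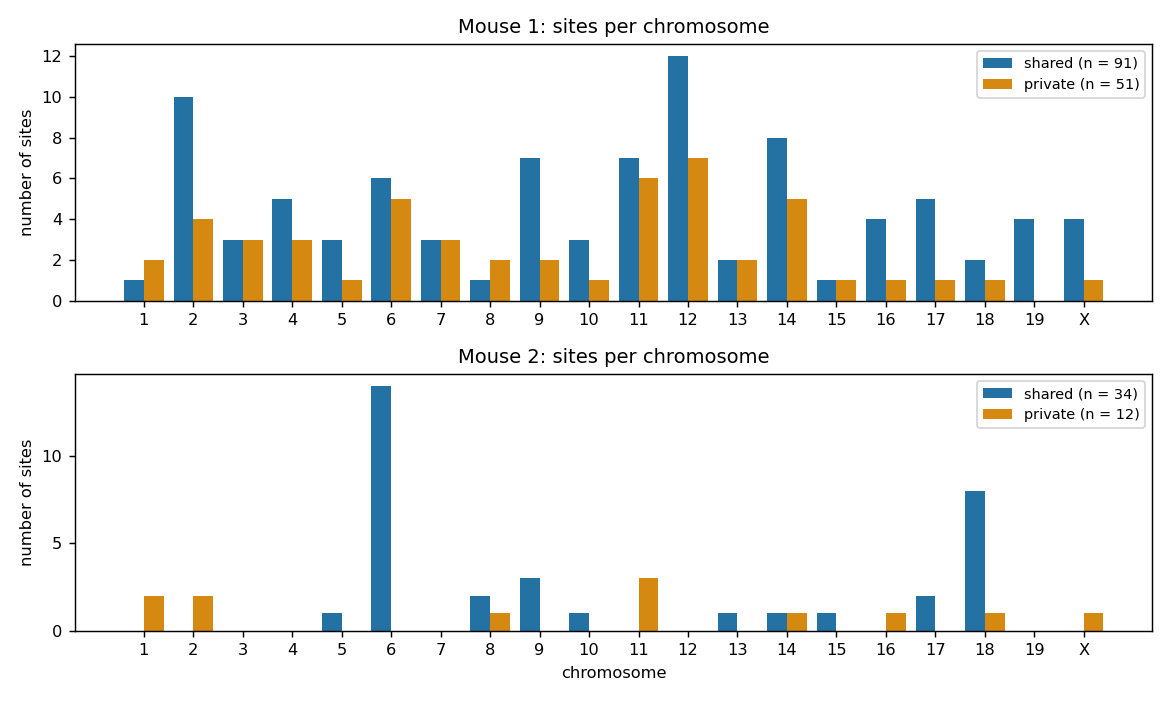
Number of shared (blue) and private (orange) sites on each chromosome in mouse 1 (top) and mouse 2 (bottom). Shared sites of mouse 1 lie on 20 chromosomes with at most 12 on 1, and 14 of the 34 shared sites of mouse 2 lie on chromosome 6 and 8 on chromosome 18.

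The share of calls that were shared differed between the tumours of a mouse. In mouse 1 it was 84.3% of the 108 calls of tumour 1 (76 to 90.5) and 72.8% of the 125 calls of tumour 2 (64.1 to 80.4). In mouse 2 it was 79.1% of the 43 calls of tumour 1 (64.0 to 90.0) and 91.9% of the 37 calls of tumour 2 (78.1 to 98.3). The tumour with more calls thus had the lower share in each mouse, which follows from a number of shared sites that is the same in both, and the intervals overlapped.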

How the data were processed

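Deposited were somatic calls of exome sequencing, 1 line per call, with tumour and control allele fractions made by the authors, in the unit fraction and printed here as percentages, a tier, and a quality score per site where given, per the file headers. The file headers name the tier TQS and the score QUAL, and which caller gave them was not established here. BWA, GATK and the build GRCh38 are named in the submitters' processing notes, with roles not given in the sources used here. Positions were read as mouse GRCm38: of 186 distinct sites, 182 had their gene in the RefSeq table of GRCm38.p6, 178 lay inside it, and 4 single-base sites in promoter windows had the same reference base.

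Samples were paired by the mouse number of the labels. Sites were joined within each mouse with Python 3.11.15, pandas 2.3.3, numpy 2.4.6 and scipy 1.17.1, and figures drawn with matplotlib 3.10.9. All 313 calls of the 4 tumours were used. The joining was tested on simulated data with known classes. No test was made, and shares have exact 95% intervals.

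The members and lists were chosen with earlier results of these data known. Named genes are, per mouse, the 8 highest and 3 lowest shared sites, the 3 largest differences between tumours each way, the 5 highest private sites of each tumour, truncating and splice-site genes, genes with both classes or 3 or more sites, private sites with control reads, and list members. A site that this rule names is not reported here.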

Additional observations from a re-analysis of the deposited data

How the results depend on the processing

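Each result was recomputed with other choices of calls, sites and summaries, 273 values in all. The fraction difference kept its sign in both mice. Of 110 comparisons of a shared with a private share, 12 turned round and 4 became equal, the 4 being identifiers in mouse 1. The share of shared sites in mouse 2 was 97.1% with fractions of at least 0.1, 87.1% with a control fraction of 0 and 31.2% without database identifiers. The fraction difference, shared minus private, in mouse 1 (5.72 points) was 5.16 at fractions of at least 0.05, 2.05 at 0.1, 4.61 with a control fraction of 0, 3.43 with tier 1 calls, 5.18 without antibody segments and Adam6b, 5.18 without sites of several mice and 4.33 by means. In mouse 2 (41.3 points) it was 37.4 at 0.05, 36.4 with a control fraction of 0 and 36.9 with tier 1 calls, and it could not be computed at 0.1, where tumour 2 had no private site left. Leaving out each tumour gave 5.54 to 5.90 points in mouse 1 and 38.6 to 44.0 in mouse 2. The classes were kept, so these are the differences of the single tumours given above and add no check. The private share with control reads in mouse 2 was 33.3% at 0.05 and 100% at 0.1 (1 site), and the shared share was 0% without database identifiers. The private share with an identifier became 0% in mouse 1 at 0.05, at 0.1 and with a control fraction of 0, and in mouse 2 it became 100% at 0.1 and 0% with a control fraction of 0. Of 2 alternatives chosen after seeing the data, leaving out the X chromosome gave 5.41 points in mouse 1. Leaving out sites with control reads and fractions under 5% gave 5.10 points and a private identifier share of 0% in mouse 1, and 37.4 points and a private control-read share of 33.3% in mouse 2. The following shares of shared and of private sites turned round. At fractions of at least 0.1, T-to-C changes were 31.6% of shared and 34.1% of private sites in mouse 1, and likewise C-to-T changes 18.8 and 0% in mouse 2, tier 1 calls 86.4 and 90.7% in mouse 1 and 94.1 and 100% in mouse 2, and identifiers 85.3 and 100% in mouse 2. At 0.05, tier 1 calls were 88.3 and 90.4% in mouse 1 and C-to-T changes 18.8 and 16.7% in mouse 2. Tier 1 calls alone gave C-to-T changes of 26.0 and 27.3% in mouse 1, a control fraction of 0 gave tier 1 shares of 94.4 and 100% in mouse 2, and leaving out sites of several mice gave 88.5 and 89.4% in mouse 1. Without identifiers, T-to-C changes were 0 and 9.09% and protein-altering sites 100 and 90.9% in mouse 2. Fewer sites enter under each of these filters, and the part of single sites in the changes was not tested. The classes were also set anew after each filter, so a shared site that lost 1 of its calls counted as private. With tier 1 calls, private sites thus numbered 57 in mouse 1, against 51 unfiltered, and 14 in mouse 2, against 12. How far this moved the fraction differences and the shares was not tested. Of the other values, 107 of the main results and 124 of the further results stayed within the set limits, and 16 of the further ones moved beyond them. The unknown read depth limits every fraction, and most of all those of a few percent.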
